A study of Homo sapiens with 10 samples.

Results

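Chromatin accessibility around the transcription starts of the AP-1 family genes was followed in a human leukemia line with and without SLFN11. The genes are FOS, FOSB, FOSL1, FOSL2, JUN, JUNB, JUND and ATF3. They were chosen by name, and every ATAC-seq peak that overlapped 2 kb to either side of a stated hg19 start of these 8 genes was taken. Those windows held 12 of the 35505 regions formed by merging the deposited peak lists: 3 at JUND, 2 each at FOSB and JUNB, and 1 at each of the other genes. ATAC-seq inserts sequencing adapters into open DNA with a transposase, so a peak marks accessible chromatin and not transcription.

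CCRF-CEM cells are T lymphoblasts. One line lacked SLFN11 and the other was the wild-type parent, called parental here. Cells of each line received DMSO alone, prexasertib at 100 nM for 2, 4 or 6 h, or camptothecin at 100 nM for 4 h. Prexasertib blocks CHK1, a kinase of the replication checkpoint, and camptothecin is a topoisomerase I poison. The labels and the series record do not say how the knockout was made, whether it is 1 clone, or how long DMSO was left on. The series title names immediate early gene activation by SLFN11 under replication stress as its question. There were 10 libraries in 10 groups, 1 library per group, so every difference below is between single libraries and no test could be made. Per the series record, the raw data of 1 library, parental with prexasertib for 4 h, are truncated, and its values carry that limit.

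AP-1 is a dimer of basic leucine zipper proteins. JUN proteins pair with one another or with FOS or ATF proteins, whereas FOS proteins need a JUN partner to bind DNA. Several of the genes are immediate early genes, which are switched on within minutes by growth signals or stress without new protein synthesis, and in T cells AP-1 acts with NFAT at cytokine genes. The dimers bind the TPA response element TGACTCA or the cyclic AMP response element TGACGTCA, and AP-1 and ATF/CREB proteins act on several of the family's own promoters.

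The promoter sequences of 5 genes are shown. RefSeq promoter tables on GRCh38.p14, a later build than the hg19 of the peaks, held 7 of the 8 genes, 6 of them with a single start, and FOSL1 was not among them. Their starts were not mapped to the hg19 starts to which the peaks below are referred, so motif and peak positions may not share a zero. At FOSB and JUNB the highest summit of the window was in part of the libraries at a site past the start. Each line gives the 250 bases before the start, from 5′ to 3′ along the gene. Capitals mark TGACG on either strand (CGTCA on the other), the full TGACGTCA and CCAAT.
FOS (chr14:75278578-75278827, plus strand): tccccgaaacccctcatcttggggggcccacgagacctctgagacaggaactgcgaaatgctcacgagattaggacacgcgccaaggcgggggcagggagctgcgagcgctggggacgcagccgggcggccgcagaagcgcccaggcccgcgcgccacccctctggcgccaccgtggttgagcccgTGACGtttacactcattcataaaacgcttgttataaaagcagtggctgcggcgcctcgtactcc
FOSB (chr19:45467746-45467995, plus strand): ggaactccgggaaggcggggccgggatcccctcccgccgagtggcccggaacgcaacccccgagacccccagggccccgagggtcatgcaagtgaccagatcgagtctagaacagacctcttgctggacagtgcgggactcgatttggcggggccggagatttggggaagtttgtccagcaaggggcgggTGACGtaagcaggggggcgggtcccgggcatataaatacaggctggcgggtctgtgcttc
JUN (chr1:58784048-58784297, minus strand): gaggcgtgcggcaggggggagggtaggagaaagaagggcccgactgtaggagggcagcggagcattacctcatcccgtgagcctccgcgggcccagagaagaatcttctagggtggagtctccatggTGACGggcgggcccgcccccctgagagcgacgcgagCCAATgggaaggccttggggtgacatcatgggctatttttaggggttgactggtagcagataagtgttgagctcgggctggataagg
JUNB (chr19:12791236-12791485, plus strand): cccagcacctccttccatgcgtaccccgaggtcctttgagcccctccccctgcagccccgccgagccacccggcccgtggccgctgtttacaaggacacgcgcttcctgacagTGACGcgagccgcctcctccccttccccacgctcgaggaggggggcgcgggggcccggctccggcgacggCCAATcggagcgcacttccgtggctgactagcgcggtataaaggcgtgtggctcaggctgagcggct
JUND (chr19:18281623-18281872, minus strand): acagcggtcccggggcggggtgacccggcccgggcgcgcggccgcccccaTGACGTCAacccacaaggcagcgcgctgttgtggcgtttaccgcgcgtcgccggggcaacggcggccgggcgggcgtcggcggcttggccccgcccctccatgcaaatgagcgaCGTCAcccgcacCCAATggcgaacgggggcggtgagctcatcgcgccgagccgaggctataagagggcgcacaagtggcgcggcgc

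The full TGACGTCA was present upstream of JUND alone among the 6 genes, at -200 to -193 from the start, and in 1.65% of 35116 promoters searched on both strands. The element TGACTCA and the looser TGANTCA, which contains it, were found upstream of 0 of the 6 genes, against 4.20% and 6.57% of promoters. The CArG box, to which serum response factor binds, was found in 0 of the 6 windows and in 1.16% of promoters. JUN, JUNB and JUND each held CCAAT, at -87, -67 and -74 from the start, and 32.0% of promoters held it. GGGCGG, the core of an SP1 site, was found in 5 of the 6 windows, all but that of JUNB, and in 42.6% of promoters. Shorter words were added after the sequences were seen: TGACG, which TGACGTCA contains, was in all 6 windows and in 21.2% of promoters, and TATAAA was upstream of FOS, FOSB and JUNB and in 10.7% of promoters. The 6 windows were between 62% and 74.8% G and C, against a median of 58% over the table. A match is only a string of letters, and its absence concerns these 250 bases alone. Only exact fits to these patterns were counted, so near matches, such as the tgacatca upstream of JUN, are left out.

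All 8 genes had a peak in all 10 libraries, and 11603 of the 35505 regions were called in all 10. The height and width of the peaks varied, and at FOSB and JUND so did which sites were called. The pileup at each summit, the depth of overlapping reads or fragments, was recovered from the deposited fold and p-value, and height is that pileup divided by the lowest, genome-wide background pileup of the library. That background lay between 1.59 and 2.1 in knockout libraries and between 1.33 and 1.63 in parental libraries. With DMSO the median height of the 8 genes was 37.9 in knockout cells and 25.1 in parental cells, beside 25.1 and 18.4 over the 11546 regions that were called in every library. JUND or JUN was the highest in each library and FOSL1 the lowest in each. The deposited −log10 q of the best summit ranged from 24.0 to 89.1 at JUN and from 19.3 to 62.8 at FOS. At FOSL1 it ranged from 2.85, in parental cells with DMSO, to 19.1, so that this peak stood there not far above the smallest value listed. The deposited fold, over the local background, ranged from 6.17 to 8.37 at FOS and from 2.84 to 4.37 at JUNB, and lay between these limits at the other genes. The interval of a ratio of heights comes from the 2 pileups, at 95% confidence, and covers counting error only.

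**Figure D1:**
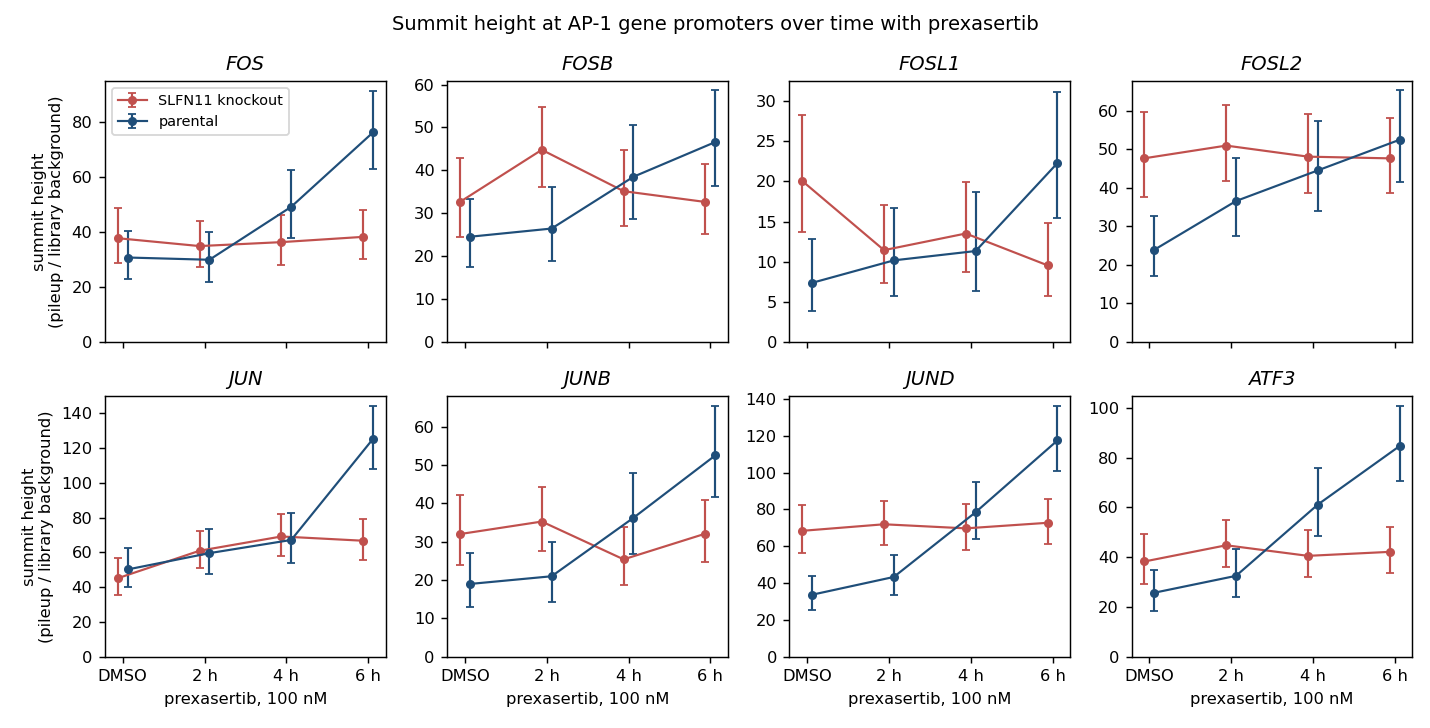
Height of the highest summit of the window (pileup over library background, linear axis from 0) at the 8 promoters by treatment (DMSO, then 100 nM prexasertib for 2, 4 and 6 h), knockout in red and parental in blue, 1 library per point; bars are exact Poisson intervals of the pileup at 95% confidence. Every gene is higher at 6 h than with DMSO in parental cells; in knockout cells the counting interval of the ratio to DMSO lies above 0 at JUN and, at 2 and 6 h, below 0 at FOSL1.

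FOS encodes the founding member of the FOS group and is a textbook immediate early gene. Its region was chr14:75744900-75746180 (hg19), from -581 to 699 bases around the start. In knockout cells its height was 37.6 with DMSO, 34.8, 36.2 and 38.1 at 2, 4 and 6 h with prexasertib, and 29.9 with camptothecin. In parental cells it was 30.6 with DMSO, 29.8, 49.0 and 76.1 after the same times, and 66.4 after camptothecin. The 3 highest parental values are above all 5 knockout values. The parental ratio to DMSO on the log2 scale was -0.04 at 2 h (-0.66 to 0.57), 0.68 at 4 h (0.13 to 1.24), 1.31 at 6 h (0.82 to 1.82) and 1.12 after camptothecin (0.61 to 1.64). The knockout ratios ran between -0.33 and 0.02, and the interval of each held 0. The FOS peak held 2, 2 and 3 summits over the prexasertib times and 3 with camptothecin in parental cells, against 1 with DMSO, and 1 in every knockout library.

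FOSB encodes a FOS protein that is also an immediate early product, and it had 2 accessible sites. The site downstream, from 929 to 2066 bases after the start (chr19:45972182-45973319), was called in all 10 libraries. The site over the start, from -433 to 738 (chr19:45970820-45971991), was called in 8 libraries, and the lists without it were parental DMSO and parental 2 h prexasertib. Leaving out the truncated parental 4 h library, 7 of 9 called it. Its height was 18.2 with DMSO, 31.9, 28.6 and 18.1 over the prexasertib times and 21.8 after camptothecin in knockout cells. In parental cells it was 38.5 at 4 h, 45.9 at 6 h and 49.8 with camptothecin. So this site was open in knockout cells with and without drug, and was listed in parental cells at 4 and 6 h and with camptothecin, not with DMSO or at 2 h. Of all 35505 regions, 24.1% were likewise called in parental cells at 6 h of prexasertib and not with DMSO, and 16.1% in knockout and not parental cells with DMSO. The downstream site had heights of 32.6, 44.8, 35.1 and 32.6 in knockout cells over DMSO and the 3 prexasertib times, and 20.1 after camptothecin. The parental heights there were 24.5, 26.4, 33.2 and 46.6, with 43.6 after camptothecin. On the log2 scale the parental ratio of that site to DMSO was 0.93 at 6 h (0.35 to 1.52) and 0.83 after camptothecin (0.24 to 1.44), and the knockout ratio after camptothecin was -0.70 (-1.36 to -0.05). Over the start, the knockout ratio to DMSO was 0.81 at 2 h (0.16 to 1.49), 0.65 at 4 h (-0.02 to 1.36) and 0.26 after camptothecin, the last 2 with intervals that hold 0. There the ratio of knockout to parental was -1.35 at 6 h (-1.97 to -0.75) and -1.19 after camptothecin (-1.80 to -0.60).

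FOSL1 encodes FRA-1, a FOS protein without the strong activation domain of FOS. It had the lowest peak of the family, so its ratios are the least precise, with pileups of 12 to 36. Its region, chr11:65667595-65668224, ran from -227 to 402. Height in knockout cells was 20.1 with DMSO, 11.4, 13.5 and 9.53 over the prexasertib times and 10.3 after camptothecin. Parental heights were 7.35 with DMSO, 10.2, 11.3 and 22.3, and 24.9 after camptothecin. The order of the treatments was thus turned round: DMSO was the highest of the knockout libraries and the lowest of the parental ones. Against DMSO the knockout log2 ratio was -1.07 at 6 h (-1.98 to -0.21), and 0.121% of regions lay below it. The parental ratio was 1.60 at 6 h (0.62 to 2.69) and 1.76 after camptothecin (0.79 to 2.84). With DMSO the knockout height was 2.73 times the parental one, and 99.4% of regions had a smaller ratio of knockout to parental.

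FOSL2 encodes FRA-2, the other FRA protein, and its region was chr2:28615057-28616339, from -722 to 560. Knockout heights were 47.7 with DMSO, 51.0, 48.1 and 47.6 over the prexasertib times and 40.8 after camptothecin. Parental heights were 23.9 with DMSO, 36.6, 44.5 and 52.5, and 55.3 after camptothecin. Parental cells at 4 and 6 h and with camptothecin were within or above the range of the knockout heights. The knockout height with DMSO was 2.00 times the parental one, and by 6 h of prexasertib the log2 ratio between the genotypes was -0.14 (-0.58 to 0.31). By the highest summit of each window, FOSL2 was at 2 h the single family gene past 1.5-fold in parental cells, with a log2 ratio of 0.61 (-0.01 to 1.25) whose interval holds 0.

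JUN encodes the JUN protein, the most potent activator among the JUN proteins. Its region was chr1:59248909-59250464, from -679 to 876. Height was 45.2 with DMSO, 61.0, 69.2 and 66.7 over the prexasertib times and 55.2 after camptothecin in knockout cells. In parental cells it was 50.2 with DMSO, 59.6, 67.2 and 125 over the times and 89.2 after camptothecin. By the highest summit of each window, JUN was the 1 gene higher after prexasertib in knockout cells beyond counting error. It was so at all 3 times, beside 4.26%, 4.79% and 3.41% of regions. Counting intervals narrow as pileups grow, and JUN stood above most regions: its knockout DMSO height of 45.2 compares with a median of 25.1 over regions. The log2 ratio to DMSO was 0.43 at 2 h (0.01 to 0.87), 0.62 at 4 h (0.19 to 1.05) and 0.56 at 6 h (0.14 to 1.00). A lower ratio was found at 95.4% of regions at 4 h and 95.1% at 6 h. With DMSO it was the 1 gene whose knockout height was under the parental one, as 12.5% of regions were. The log2 ratio was -0.15 (-0.63 to 0.32), and 5.99% of regions had a lower one. This ratio and the 3 prexasertib ratios share the knockout DMSO height of 45.2, the lowest JUN height of all libraries, so they are not separate observations.

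JUNB encodes a JUN protein that activates weakly and can oppose JUN. Its site over the start, from -175 to 1379 (chr19:12902135-12903689), had heights of 28.2, 24.3, 25.4 and 27.6 over DMSO and the prexasertib times in knockout cells, and 18.4 after camptothecin. Parental heights there were 19.0, 21.0, 36.2 and 52.5, with 56.7 after camptothecin. Another site lay at the edge of the window, from 1967 to 2606. At that site knockout heights were 32.0, 35.2, 31.9 and 32.1 with 29.9 after camptothecin, and parental heights were 14.7, 26.4, 40.7 and 53.8 with 51.2 after camptothecin. At both sites parental cells were higher at 4 h, 6 h and with camptothecin than with DMSO. Knockout heights ran from 18.4 to 28.2 over the start and from 29.9 to 35.2 at the edge. The edge site reached into the window in 4 knockout lists and in none of the parental ones, and there it gave the highest summit; values of JUNB for the whole window therefore compare different sites between genotypes. At the start itself, the log2 ratio of knockout to parental was -0.93 at 6 h (-1.45 to -0.41) and -1.62 after camptothecin (-2.26 to -1.02), against -0.71 and -0.92 for the whole window.

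JUND encodes the JUN protein that most cells hold without stimulation, and its peak over the start (chr19:18391918-18393055, from -589 to 548) was among the highest. Knockout heights were 68.4 with DMSO, 71.9, 69.7 and 72.7 over the prexasertib times and 55.2 after camptothecin. Parental heights were 33.7 with DMSO, 43.3, 78.5 and 117, and 74 after camptothecin. The knockout height with DMSO was 2.03 times the parental one, and the parental height at 6 h was 3.49 times its DMSO value, with 95.2% of regions below it. JUND also had sites past its start. One from 904 to 1497 was called in 6 libraries: knockout at 2 and 4 h of prexasertib, and all 4 treated parental libraries. Neither DMSO list held it. A further one, from 1914 to 2081, was called after 6 h in parental cells and in no other library. The −log10 q ranged from 2.65 to 8.75 at the site from 904 to 1497 and was 7.56 at the further one. Over the start it ranged from 12.5 to 67.8. Of all 35505 regions, 7.14%, 11.2% and 24.1% were likewise called in parental cells at 2, 4 and 6 h and not with DMSO. After camptothecin 20.0% were. In knockout cells 5695 of the 35505 regions were called at 2 h of prexasertib and not with DMSO, and 3913 at 4 h. The parental 6 h list was also the longest of the 10, with 31526 summits.

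ATF3 encodes a stress-induced ATF protein that pairs with JUN proteins, and its region was chr1:212781528-212783154, from -442 to 1184. Knockout heights were 38.3 with DMSO, 44.8, 40.5 and 42.1 over the prexasertib times and 32.8 after camptothecin. Parental heights were 25.7 with DMSO, 32.5, 61.1 and 84.6, and 80.9 after camptothecin. The last 3 are above every knockout value. Parental ratios to DMSO on the log2 scale were 1.25 at 4 h (0.69 to 1.82), 1.72 at 6 h (1.21 to 2.26) and 1.65 after camptothecin (1.13 to 2.20). The knockout ratios ran between -0.22 and 0.23.

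**Figure D2:**
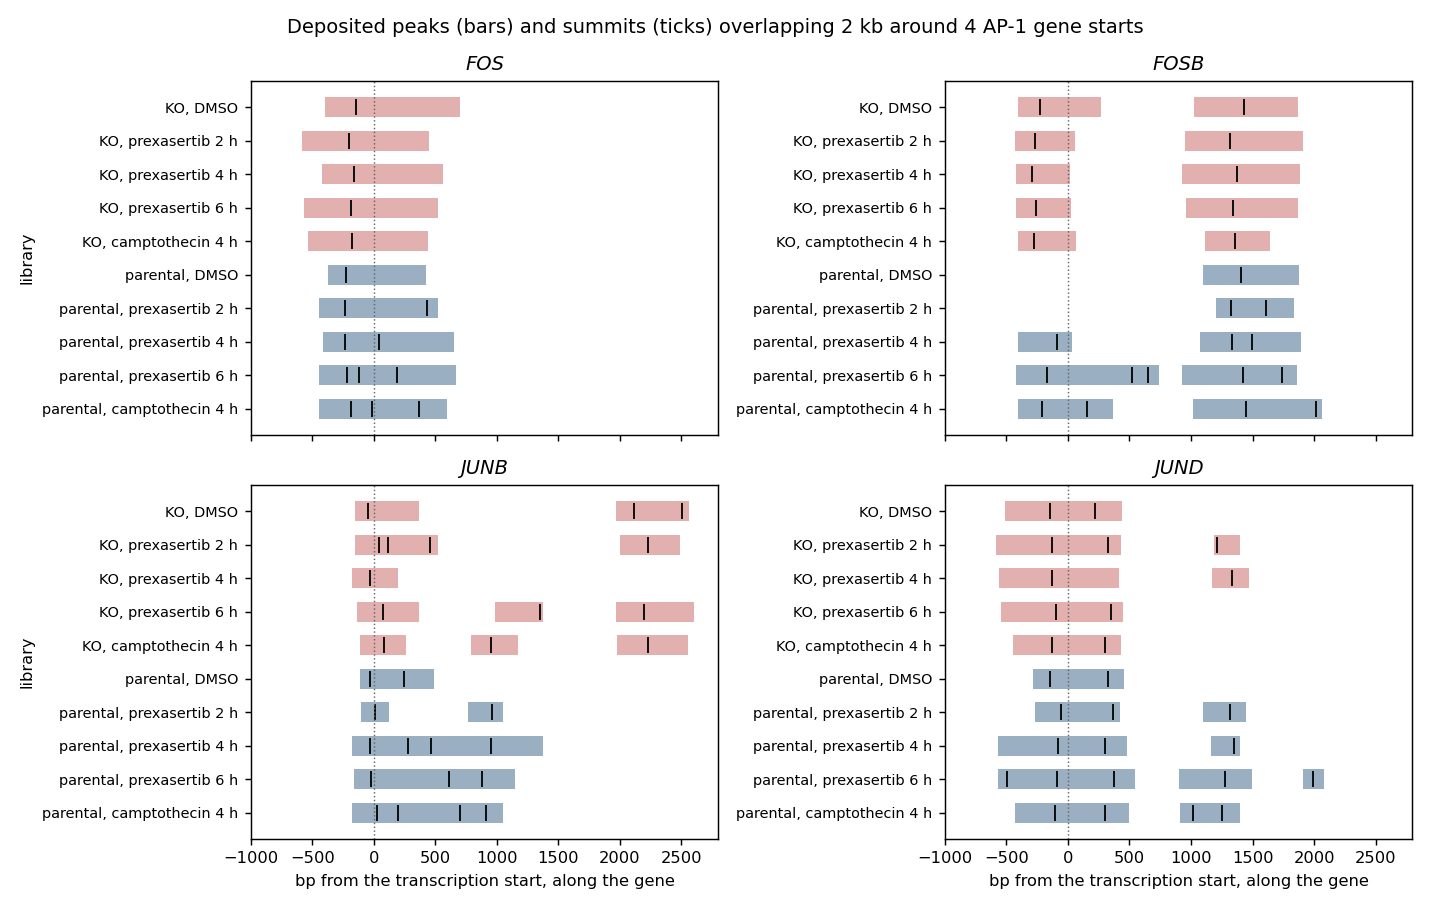
Deposited peaks (bars) and their summits (ticks) that overlap the window at FOS, FOSB, JUNB and JUND, by distance in bp from the start along the gene, with knockout (KO) libraries in red above parental libraries in blue, 1 library per row. The FOSB peak over the start is missing from the parental DMSO and 2 h rows, the JUND row for parental 6 h has 3 peaks, and JUNB peaks past 2000 bp that do not reach the window are not drawn.

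The family was then set beside all regions, since many regions were higher with drug. In parental cells 1, 7 and 8 of the 8 genes were higher by 1.5-fold or more over the 3 prexasertib times, and the same was true of 10.3%, 54.5% and 78.5% of regions. These values take the highest summit of each window, which at FOSB and JUNB was not the same site in every library. The single gene short of 1.5-fold at 4 h was JUN, but the FOSB value there sets its start site against the downstream site with DMSO, and at the downstream site alone the ratio was 1.36-fold (log2 0.44, -0.21 to 1.09). The JUNB edge site, outside the window in parental lists, was 1.8-fold its DMSO height already at 2 h (log2 0.85, 0.08 to 1.64). Its parental DMSO call was weak, with a −log10 q of 2.48. The family's median log2 ratio was 0.29, 0.79 and 1.39, against 0.15, 0.62 and 1.05 over regions. A median gain with prexasertib was thus shared by the regions at large, and the family's was the larger at all 3 times on this scale. The genes ran from 0.93 (FOSB) to 1.8 (JUND) at 6 h, and 7 of 8 were above the median of the regions. Parental backgrounds were lower with drug, between 1.33 and 1.52, than with DMSO, at 1.63. With pileups left undivided, the medians at 6 h were 1.29 for the family and 0.95 for regions.

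The scale decides whether the family stands above the regions. The deposited fold sets the summit against the local background around it. By that fold the parental family median at 4 h was 0.14 and that of regions 0.24, at 6 h it was 0.35 and that of regions 0.50, and after camptothecin 0.29 and 0.36. FOSB was then at -0.28 at 6 h, and JUN at -0.45 at 4 h and -0.24 after camptothecin, opposite in sign to their heights. At 6 h JUND was at 0.61 and FOSL1 at 0.87.

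After camptothecin 8 of 8 genes were higher by 1.5-fold or more in parental cells, beside 73.8% of regions, with a median log2 ratio of 1.17 against 0.85. The genes ran from 0.83 (JUN) to 1.76 (FOSL1), and 98.4%, 97.3% and 96.1% of regions lay below FOSL1, ATF3 and JUNB. The counting interval of all 8 genes excluded no change, as it did for gains at 64.8% of regions.

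In knockout cells 0, 1 and 0 genes were higher by 1.5-fold or more over the 3 times, and 6.03%, 5.35% and 4.24% of regions were. The gene at 4 h was JUN. Over its start alone, FOSB was 1.75-fold its DMSO height at 2 h and 1.57-fold at 4 h. Lower by that much were 1, 0 and 1 genes, FOSL1 in both cases, beside 1.33%, 2.30% and 2.62% of regions. The family's median ratio was 0.12, 0.02 and 0.01, against 0.13, 0.11 and 0.06 over regions. After camptothecin 1 gene was lower by 1.5-fold or more, FOSL1, beside 11.8% of regions. The median was then -0.27, against -0.20, and JUN at 0.29 (-0.17 to 0.75) was the single gene above 0, where 25.6% of regions were. Site by site, FOSB was at 0.26 over the start and at -0.70 downstream, and JUNB was at -0.62 over the start (-1.32 to 0.07) and at -0.10 at the edge.

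**Figure D3:**
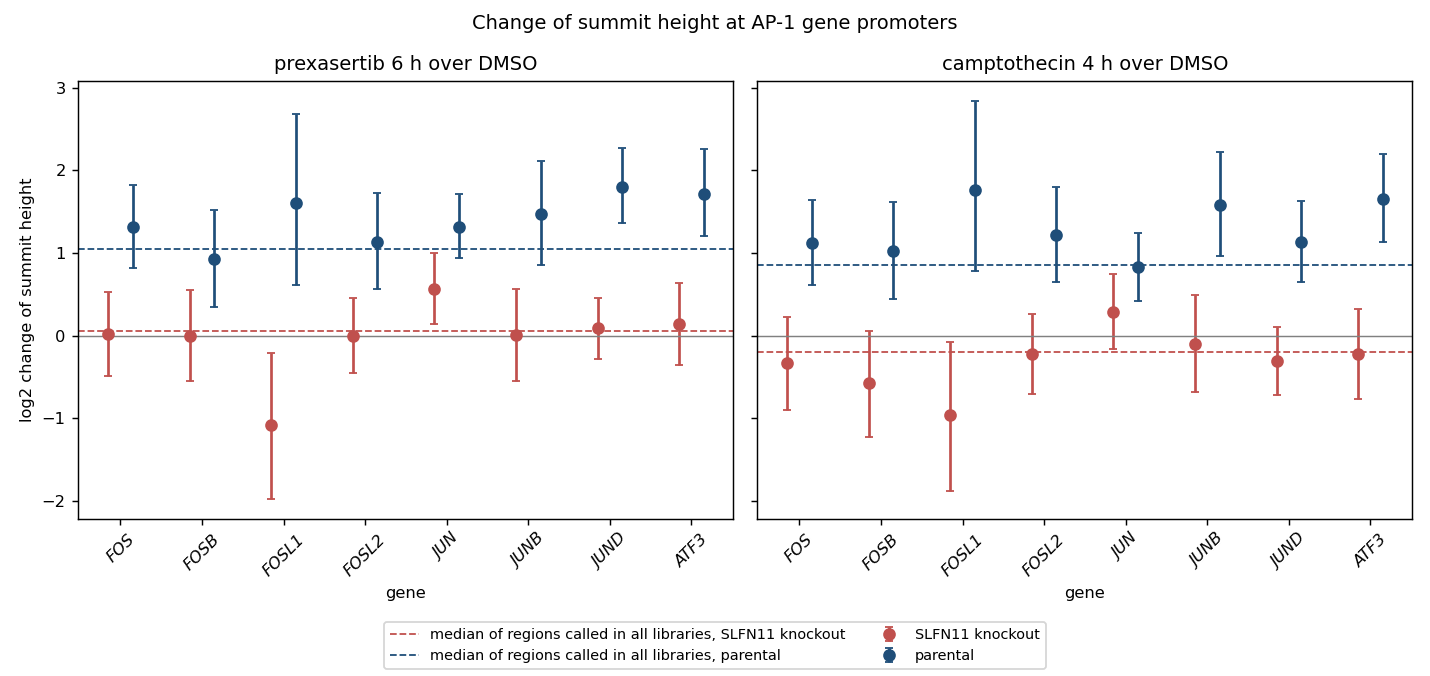
Log2 ratio of the highest summit of the window to that with DMSO at each gene after 6 h of prexasertib (left) and 4 h of camptothecin (right), knockout in red and parental in blue, 1 library per condition; bars are counting intervals at 95% confidence and dashed lines the medians over regions called in all libraries. Parental points lie between 0.83 and 1.8, and knockout points between -1.07 and 0.56.

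Between the genotypes, the median ratio was above 0 with DMSO and below 0 at 6 h and after camptothecin. At 4 h its sign turned with the scale: it was -0.15 by height, 0.33 with pileups left undivided and 0.07 by the deposited fold. With DMSO 4 of 8 genes were higher in knockout than in parental cells by 1.5-fold or more (FOSL1, FOSL2, JUNB and JUND), as were 32.4% of regions, with a median log2 ratio of 0.66 against 0.42. After 2 h of prexasertib 3 genes were (FOSB, JUNB and JUND), beside 28.4% of regions, with medians of 0.47 and 0.38. JUNB in both counts sets the knockout edge site against the parental start site. With DMSO it was 1.49-fold over the start and 2.18-fold at the edge, where the parental call was weak (−log10 q 2.48). At 2 h it was 1.16-fold and 1.33-fold, so that at 2 h neither site alone reached 1.5-fold. At 4 h 0 genes were higher and 1 was lower by that much (ATF3), beside 5.08% and 8.23% of regions. At 6 h 6 genes were lower, all but FOSB and FOSL2, beside 47.0% of regions, with medians of -0.81 and -0.55. FOSB is counted there at its downstream site, and over its start alone it was at -1.35 (-1.97 to -0.75). All 8 were lower by some amount, as were 85.2% of regions. After camptothecin 6 were lower, all but FOSL2 and JUND, beside 55.1% of regions, with medians of -1.04 and -0.64, and again all 8 were lower by some amount, as were 90.9%. By the deposited fold the family's medians were -0.04 at 6 h and -0.17 after camptothecin, against -0.30 and -0.28 over regions, so that the family then lay nearer to 0 than the regions.

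**Figure D4:**
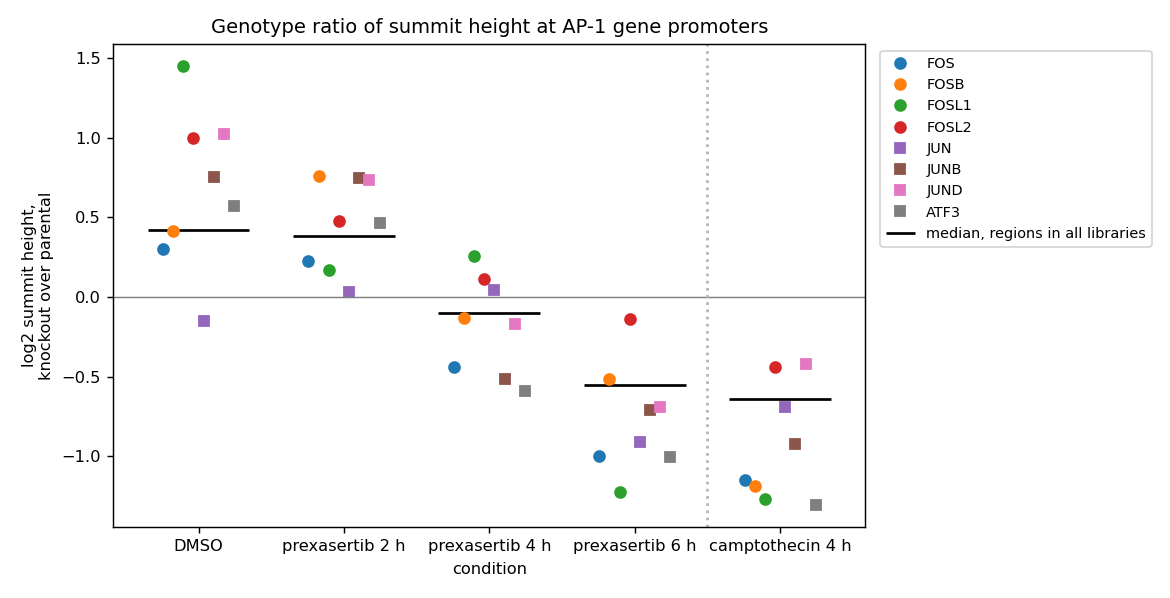
Log2 ratio of knockout to parental summit height for each gene (points, 1 library per genotype and condition) and the median over regions called in all libraries (black lines). Points are mostly above 0 with DMSO, where the median over genes is 0.66, and all below 0 at 6 h of prexasertib and after camptothecin, where it is -0.81 and -1.04.

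The change with drug in knockout cells minus that in parental cells was also taken gene by gene. Its median over the family was -0.09, -1.03 and -1.38 log2 units over the prexasertib times and -1.53 with camptothecin. Over regions it was -0.03, -0.51, -0.97 and -1.06. The number of genes below 0 was 6, 7, 8 and 8, and 52.6%, 85.3%, 92.5% and 95.6% of regions were below 0. FOSL1 was the farthest, at -2.68 at 6 h with a counting standard error of 0.64 and at -2.72 after camptothecin with one of 0.64. Only 0.0606% and 0.147% of regions had a more negative difference. At 6 h and with camptothecin JUN was the nearest to 0, at -0.76 and -0.54, and at 4 h it was above 0, at 0.20. All ratios of a genotype share its 1 DMSO library, so the 4 FOSL1 differences rest on the same DMSO heights of 20.1 in knockout and 7.35 in parental cells. By the deposited fold the medians over genes were -0.28 at 6 h and -0.37 after camptothecin. That difference was not taken over regions. By that fold the median change of the regions at 6 h was 0.06 in knockout and 0.50 in parental cells, and that of the family 0.05 and 0.35. After camptothecin the regions were at -0.07 and 0.36 and the family at -0.10 and 0.29, so the genotypes were not farther apart in the family on this scale.

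At 4 h both drugs could be set side by side. In knockout cells 1 gene (FOSB) was higher with prexasertib than with camptothecin by 1.5-fold or more, beside 18.4% of regions, and the median log2 ratio was 0.32 against 0.31. At its single sites FOSB was 1.31-fold over the start and 1.75-fold downstream. In parental cells 2 genes were lower with prexasertib by that much, FOSL1 and JUNB, beside 12.7% of regions. The median there was -0.41 against -0.23, and FOSL1 at -1.14 (-2.11 to -0.23) was lowest of the family, with 0.424% of regions lower. JUND, at 0.08, was the single gene not lower, and 22.5% of regions were higher. The parental prexasertib value in this comparison is from the truncated library, which has no replicate.

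Peaks in parental cells were wider than with DMSO at 6 h of prexasertib and after camptothecin, and not at 2 h. At 2 h 3 of the 8 genes had a wider peak and 5 a narrower one, beside 50.4% and 49.3% of regions, with a median log2 ratio of widths of -0.07. At 4 h 7 were wider, beside 63.8% of regions, and FOSL1 was narrower, at 190 bp against 255 bp. At 6 h of prexasertib all 8 genes had a wider peak in parental cells than with DMSO, as had 77.1% of regions, and 3 of them by 1.5-fold or more (FOSL2, JUNB and JUND), beside 22.2% of regions. The JUND peak was 1117 bp then and 736 bp with DMSO. The widest FOSL2 peak was 1194 bp at 6 h and 580 bp with DMSO. The widest JUNB peak in parental cells was 604 bp with DMSO and 281 bp at 2 h. It was 1555 bp at 4 h, 1310 bp at 6 h and 1230 bp with camptothecin. At 2 h there were 2 peaks, from -103 to 121 and from 769 to 1049, and the 281 bp belong to the latter. In knockout cells the widest peak ran from 376 to 674 bp. With DMSO, at 6 h and with camptothecin it was that of the edge site (590, 640 and 584 bp). In parental cells 2 genes were wider by 1.5-fold after camptothecin, FOSL2 and JUNB, beside 21.9% of regions. In knockout cells 0 were wider by 1.5-fold at 6 h, beside 11.3% of regions, and 2 were narrower after camptothecin, FOSB and FOSL1, beside 8.22%. With DMSO 2 genes were wider by 1.5-fold in knockout than in parental cells, FOSL1 (559 bp against 255 bp) and FOSL2 (952 bp against 580 bp), beside 21.7% of regions. The summits of the family in a library numbered 17 with DMSO, 16, 11 and 12 over the prexasertib times and 13 after camptothecin in knockout cells. Parental libraries had 12 with DMSO, 17, 21 and 25, and 23 after camptothecin. All summits of the lists numbered 26077 with DMSO, 30328, 27913 and 30046 over the prexasertib times and 24138 after camptothecin in knockout cells. In parental cells they numbered 19983 with DMSO, 19468, 23723 and 31526, and 28852 after camptothecin.

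FOS and ATF3 had the most alike pattern. Each gene's log2 heights were centred on its mean over the 10 libraries, and likeness was the mean absolute difference between genes. It was 0.11 between FOS and ATF3, 0.17 between FOSL2 and JUND and between JUNB and ATF3, 0.19 between JUN and FOS, 0.20 between FOSB and FOS, and 0.27 between FOSL1 and its closest partner, ATF3. Heights were those of the highest summit of each window, so the FOSB and JUNB patterns mix different sites between libraries. The points share their libraries and scaling, so this is a description.

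Within 50 kb of the 8 starts lay 62 regions. In parental cells 19 of them (30.6%) were called at 6 h of prexasertib and not with DMSO, and 0 the other way, beside 24.1% and 4.02% of all regions. After camptothecin 14 (22.6%) were gained and 1 lost, beside 20.0% and 3.82%. Of the 19, JUND had 6, JUNB 5 and FOSB 3, and the other genes 1 each. In knockout cells 9 were gained and 3 lost at 6 h, beside 14.8% and 6.32% of all regions, and 4 gained and 6 lost after camptothecin, beside 6.94% and 10.8%.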

How the data were processed

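Peak lists of 10 ATAC-seq libraries were deposited on hg19, 1 per library. The submitters' processing notes name MACS2 2.1.2, BWA 0.7.17, Trimmomatic 0.39, Trim Galore 0.6.2, Picard 2.9.2 and SAMtools 1.8, with no parameters. Read shifting and duplicate removal are not given in the sources used here. Values deposited for each summit are its fold over the local background, a −log10 p-value and a −log10 q-value, with a smallest −log10 q just above 2. Positions of peaks and summits are as deposited by the authors.

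Peaks on chromosomes 1 to 22 and X were merged at 1 bp of overlap. A whole pileup that matched fold and −log10 p within 0.001 was found for 99.5% to 99.7% of summits of each list and for all summits of the 8 genes. The divisor of height is the smallest background recovered in a library; read counts are unknown. Per gene the highest summit of any peak overlapping the window was used, and the background was the 11546 of 11603 regions common to all lists in which no summit failed recovery. Ratios have exact (Clopper-Pearson) conditional intervals at 95% confidence, which cover counting error only. With 1 library per group no p-value is given. As a check of the code, fold and p-value were recomputed from the recovered pileups of the knockout DMSO list, and 25982 of 25982 were found again. In a copy of that list with 200 regions raised 2-fold, 200 of 200 were found, with 0 of 20005 other regions called. The copy was otherwise the same as the list, so this gives no error rate between libraries.

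The 8 genes, the motifs and all rules were chosen with earlier results of these data known. All 8 genes are named. Other AP-1 pathway genes, cell type markers and the SLFN11 locus need hg19 gene positions and were not analysed here. Alternatives were the window, the height scale, the peak threshold, the overlap, the fold limit and the region set. Python 3.11.15 with numpy 2.4.6, scipy 1.17.1, pandas 2.3.3 and matplotlib 3.10.9 was used.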

Additional observations from a re-analysis of the deposited data

Results flagged for a closer look

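Several genes had log2 height ratios to DMSO of opposite sign in the 2 genotypes. With 1 library each, the difference between the genotypes was not tested, and several of the knockout values are within counting error of 0.

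FOSL1 was of opposite sign under every treatment. At 2 h of prexasertib it was at -0.81 in knockout and 0.47 in parental cells, and at 4 h at -0.57 and 0.62. It was at -1.07 and 1.60 at 6 h, and at -0.96 and 1.76 with camptothecin. The parental intervals at 2 h (-0.73 to 1.69) and 4 h (-0.57 to 1.85) hold 0, as does the knockout one at 4 h (-1.39 to 0.23). All these FOSL1 ratios share the DMSO library of their genotype. At 4 h of prexasertib FOS was at -0.056 in knockout and 0.68 in parental cells, and JUNB at -0.33 and 0.93. The knockout value of JUNB sets its start site against the edge site with DMSO; it was -0.15 over the start and -0.0048 at the edge. At 6 h FOSB was at -0.00056 in knockout and 0.93 in parental cells, and FOSL2 at -0.00056 and 1.14; both knockout values are at no change.

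After camptothecin every gene but JUN was of opposite sign. Of the regions called in every library, 74.4% were lower in knockout cells and 95.4% were higher in parental cells, so opposite signs were common. FOS was at -0.33 in knockout and 1.12 in parental cells, FOSB at -0.58 and 1.02, and FOSL2 at -0.22 and 1.21. Both FOSB values set the start site against the downstream site with DMSO. Downstream alone they were -0.70 in knockout and 0.83 in parental cells, and over the start the knockout value was 0.26, with no parental DMSO peak to compare. JUNB was at -0.098 in knockout and 1.58 in parental cells, JUND at -0.31 and 1.14, and ATF3 at -0.22 and 1.65. Over all regions the medians were -0.20 in knockout and 0.85 in parental cells.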

How the results depend on the processing

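All 8 genes stayed called in every library with a 5 kb window and with summits inside the window only. With a 1 kb window FOSB was missing from parental DMSO and 2 h prexasertib. With a −log10 q of at least 10, between 6 and 8 genes were called per library, and those missing were FOSL1 and JUNB. The deposited fold changed the most. By it the genes higher by 1.5-fold numbered 0 at 2 h, 0 at 4 h and 2 at 6 h of prexasertib and 1 after camptothecin in parental cells, 0 at 4 h in knockout cells, 1 with DMSO and 0 at 2 h for knockout over parental, and 0 for prexasertib over camptothecin in knockout cells. The parental medians were 0.14 at 4 h, 0.35 at 6 h and 0.29 after camptothecin. For knockout over parental they were -0.041 at 6 h and -0.17 after camptothecin, with 1 gene lower by 1.5-fold at each, and the knockout minus parental differences were -0.28 and -0.37. Among values past 1.5-fold, signs turned for FOSB in parental cells (-0.22 at 4 h, -0.28 at 6 h, -0.066 after camptothecin), JUNB at 4 h (-0.053), and JUN after camptothecin (-0.24 in parental cells, 0.18 for knockout over parental). Of the smaller ones, JUN at 4 h was at -0.45. At the highest JUN summit in parental cells, the recovered local background was 11.8 with DMSO, 18.1 at 4 h and 22.7 after camptothecin. The pileups there were 82, 89 and 129. The cause of these differences was not tested.

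Pileups left undivided gave 3 genes higher at 2 h (median 0.52) and 1 at 6 h in knockout cells, 0 at 2 h and 4 at 4 h in parental cells, and 7 at 2 h (median 0.98) and 2 at 4 h (median 0.33) for knockout over parental, with 3 lower at 6 h; the knockout minus parental difference at 2 h was 0.45. By construction these keep the depth of the libraries. A 1 kb window gave 1, 2 and 1 genes higher at 2, 4 and 6 h in knockout cells and 1 at 2 h for knockout over parental, and it leaves out the JUNB edge site and, in lists where it begins past 1 kb, the downstream FOSB site. A 2-fold limit gave 0 genes higher at 4 h in knockout cells, 0 at 2 h and 2 at 4 h in parental cells, 2 with DMSO and 0 at 2 h for knockout over parental, 2 lower at 6 h, and 0 for prexasertib over camptothecin in knockout cells. A −log10 q of at least 10 gave 2 with DMSO for knockout over parental. By summed peak length the JUNB width ratio of knockout to parental was 0.22 at 6 h and 0.12 after camptothecin, where the widest peak gave negative ratios. Regions gained within 50 kb were 12 at 4 h in knockout and 2 at 2 h in parental cells with that −log10 q, and 11 and 9 with a reciprocal overlap of 50%, against 7 and 5. No paired analysis was possible because each group has 1 library. The number of libraries calling each region without the truncated library was added after seeing the data. Low pileups limit FOSL1 most.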
